A study of Rattus norvegicus with 42 samples.

Results

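The vascular endothelial growth factor (VEGF) ligands and receptors were followed in the hippocampus of rat pups after early-life exposure to an anti-seizure drug. Members were all transcripts in the table of raw counts whose gene symbol is Vegfa, Vegfb, Vegfc, Pgf, Flt1, Kdr or Flt4. All 7 symbols were found, with 21 of the 15516 transcripts and 7 of the 14304 gene symbols listed. Male Sprague Dawley pups were injected intraperitoneally on postnatal day 7 with saline (VEH), 75 mg/kg phenobarbital (PB) or 200 mg/kg levetiracetam (LEV), and the hippocampus was taken 72 h later, 1 library per animal. PB is a barbiturate that enhances inhibition through GABA-A receptors, and LEV is an anti-seizure drug that binds the synaptic vesicle protein SV2A. No animal carried a transgene. Pups of 1 treatment group came from different litters, and treatments were balanced within litter, so animals of different groups can be littermates. The analysis used 13 VEH, 14 PB and 14 LEV animals; VEH animal 7, which the study excluded, was left out. The sample codes have 2 forms, 2 letters for animals 1 to 6 of each group and 1 letter for animals 7 to 14, and this series of codes was used as the batch. The labels do not say that the form of the code marks the study's batch.

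VEGF signalling couples the oxygen and energy demand of a tissue to the growth and permeability of its vessels. Ligand dimers made by neurons, astrocytes, choroid plexus and vessel wall cells bind receptor tyrosine kinases on endothelium, which signal through phospholipase C gamma, ERK, PI3K and Src family kinases. In the brain, Vegfa also acts on neurons and neural progenitors, and in the first weeks after birth the capillary network is still being built. The Vegfa gene gives rise to several splice forms that differ in how strongly the protein is held by the matrix.

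Vegfa accounted for 14 of the 21 transcripts, Flt1 for 2, and the other 5 genes for 1 each. In rn6, the build of the count table, 12 Vegfa transcripts span chr9:17340341-17355681. The other 2, NM_001110335 and NM_001110336, start 7424 bases further downstream, at 17347765, and end at the same base. The estimated counts could not tell all of them apart: NM_001110333, NM_001287108 and NM_001317043 had the same value in every animal, as had NM_001110334 and NM_001287110, NM_001287107 and NM_031836, and NM_001287111 and NM_001287112. The 21 transcripts therefore gave 16 different series of values. Because reads shared between splice forms were divided by an algorithm, the sum over a gene is firmer than the value of any single Vegfa transcript.

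Both Vegfa starts have a RefSeq promoter window in the newer build GRCr8, again 7424 bases apart. The 250 bases before each start are shown on the plus strand because the Vegfa counts are divided between them below. The first lies at chr9:22452604-22452853 and the second at chr9:22460028-22460277. Capitals mark GC boxes (GGGCGG or its reverse complement).
Vegfa upstream start: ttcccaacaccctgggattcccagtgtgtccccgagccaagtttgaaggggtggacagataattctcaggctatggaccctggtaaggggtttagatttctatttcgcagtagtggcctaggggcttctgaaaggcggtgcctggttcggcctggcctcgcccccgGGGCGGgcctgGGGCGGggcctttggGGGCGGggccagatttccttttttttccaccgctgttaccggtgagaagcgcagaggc
Vegfa internal start: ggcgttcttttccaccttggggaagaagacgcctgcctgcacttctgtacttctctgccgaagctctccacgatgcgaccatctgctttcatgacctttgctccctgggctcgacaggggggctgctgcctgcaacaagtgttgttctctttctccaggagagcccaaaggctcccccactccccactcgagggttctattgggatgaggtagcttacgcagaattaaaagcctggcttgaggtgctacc
The upstream window held 3 GC boxes and the internal window 0. A GC box, the core bound by Sp1 family factors, was present in 30.5% of all 33469 windows of this length and in 7 of the 8 windows of the 7 members, the internal Vegfa window being the exception. The core of the hypoxia response element (ACGTG or GCGTG, both strands) was in 36.7% of all windows and in 4 of the 8, but in neither Vegfa window. A cyclic AMP response element (TGACGTCA) was found in 1.6% of all windows and a TATA box (TATAAA) in 12.9%, and among the members both were found only in the Flt1 window. These letters describe the sequence of the 250 bases before each start, and elements outside them were not searched. They show no binding.

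Total estimated counts per animal ranged from 9499492 to 14488134. The depth behind the members differed widely: animals held 1752 to 3094 estimated counts of Vegfa, 514 to 785 of Flt1, 411 to 818 of Kdr, 232 to 417 of Vegfb, 24 to 64 of Flt4, 12 to 37 of Vegfc and 2 to 19 of Pgf. Markers of hippocampal excitatory neurons were present in every animal, with 2790 to 4143 normalized counts of Neurod6 and 10120 to 15757 of Slc17a7. Other neuronal genes examined ranged more widely between animals, Wfs1 from 303 to 1812, Prox1 from 499 to 1163 and Snap25 from 5909 to 10949. Cldn5, the tight junction protein of brain endothelium, ranged from 1128 to 2013. Ttr, the transport protein that marks choroid plexus, ranged from 9.21 to 81060. Normalized counts are rounded counts scaled to the mean effective library. In such bulk RNA, fewer cells of a type and less RNA per cell cannot be told apart.

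To ask whether either drug altered the pathway, each member was compared between the 3 treatments. Vegfa, the principal ligand of blood vessel growth, was higher in PB than in VEH animals, by a small amount. Vegfa gene sums in the 13 VEH animals had a lowest value of 1801, a median of 2171 and a highest of 2591 normalized counts (mean 2211 ± 211, SD). In the 14 PB animals they were 2161, 2430 and 2699 (2445 ± 172), and in the 14 LEV animals 1929, 2261 and 2743 (2349 ± 253). The groups overlapped, but each of the 14 PB animals exceeded the mean of the VEH animals in its own series. The log2 fold change of PB against VEH was 0.15 (SE 0.03, 95% interval 0.09 to 0.22, fold 1.11), with an adjusted p of 0.0029 (quasi-likelihood test of edgeR, Benjamini-Hochberg over all 12168 genes tested). Without the series term it did not pass (0.14, edgeR adjusted p = 0.0946). Of all genes, 2.42% were higher and 3.61% lower in PB at this adjusted p. The rise was below the log2 fold change of 0.32 in either direction that the study required, together with the adjusted p, of a differentially expressed gene.

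After LEV, Vegfa was also above the VEH mean of the series in 12 of 14 animals, with a log2 fold change of 0.09 (SE 0.03, 95% interval 0.03 to 0.16). It did not pass the test (edgeR, p = 0.00505, adjusted p = 0.579). Among all genes, 0.00822% were higher and 0% lower in LEV at an adjusted p under 0.05. PB and LEV animals differed in Vegfa by 0.06 (SE 0.03, 95% interval -0.00036 to 0.12, edgeR adjusted p = 0.246), so that no difference between the drugs was shown. Both drug comparisons use the same VEH animals.

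The PB difference was present in both series. In the first series (animals 1 to 6), Vegfa had a lowest value of 2213, a median of 2390 and a highest of 2591 in VEH animals. The PB animals of that series had 2428, 2657 and 2699. In the second series (animals 7 to 14), VEH animals had 1801, 2074 and 2171, and PB animals 2161, 2340 and 2504. In this second series the 2 groups shared only the range between 2161 and 2171. Fitted alone, the second series gave 0.17 (edgeR adjusted p = 0.0207) and the first 0.12 (adjusted p = 0.246); the difference between them was not significant (interaction 0.06, SE 0.06, adjusted p = 0.768).

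**Figure D1:**
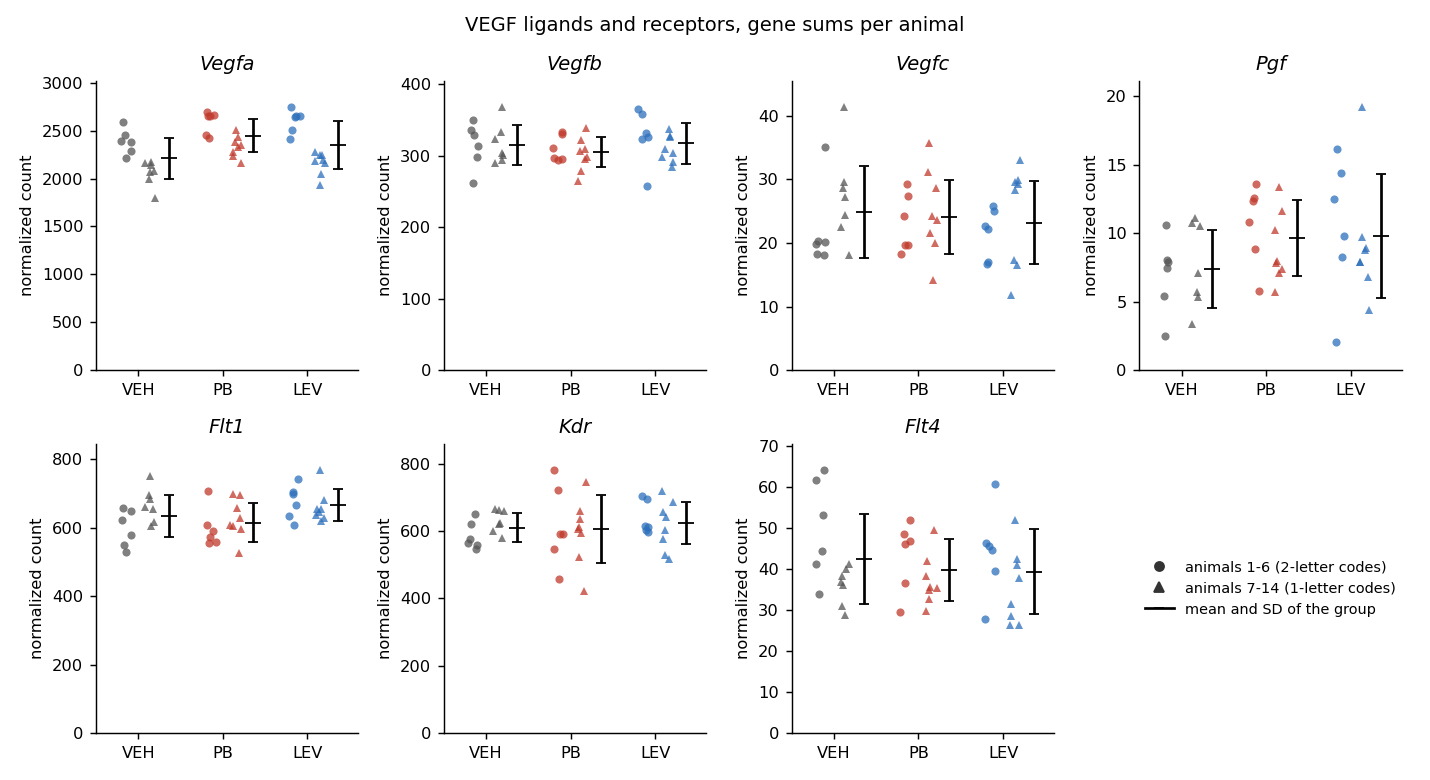
Normalized counts (y axes, from 0) of the 7 genes in every animal by treatment; circles are animals 1 to 6, triangles animals 7 to 14, and the black bar is the mean and SD of the group. Vegfa lies higher in PB than in VEH within both series, while the other 6 genes overlap throughout.

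By this criterion of an adjusted p under 0.05 with a log2 fold change of at least 0.32, 0 of the 7 genes were differentially expressed in any of the 3 comparisons. Over all genes these shares were 0.674% for PB against VEH, 0% for LEV against VEH and 0.608% for PB against LEV. At an unadjusted edgeR p under 0.05, Vegfa alone differed between PB and VEH and between LEV and VEH, and Flt1 alone between PB and LEV. Over all 12168 genes, 2575, 734 and 2504 had such a p for PB against VEH, LEV against VEH and PB against LEV. Run here on gene sums, DESeq2, the tool of the study, also found 0 genes. The study applied it to transcripts and reported Vegfa NM_001287113 and NR_105011 as increased after PB. Its qPCR of Vegfa, in a separate cohort, found no difference between treatments, which its authors said could reflect the transcript variants amplified. The choroid plexus list described further on had positive fold changes in both drug groups, none of which passed the test, and the skeletal muscle list was lower in PB. With the level of either list in the model, the Vegfa difference between PB and VEH was 0.16 (edgeR adjusted p = 0.00158) and 0.22 (adjusted p = 0.0015), and with the level of the endothelium list it was 0.16 (adjusted p = 0.00468).

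**Figure D2:**
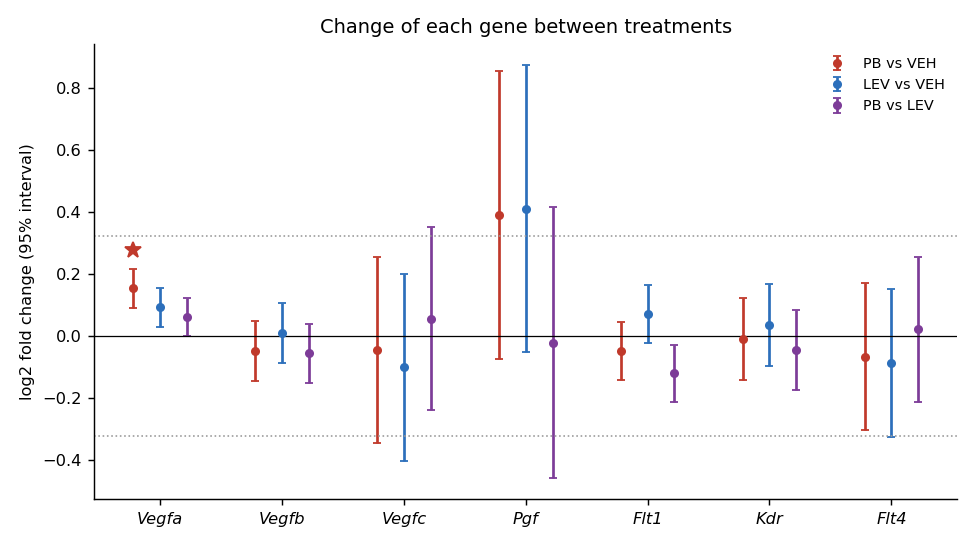
Log2 fold change of each gene sum (y axis) with its 95% interval in the 3 comparisons; dotted lines mark the limit of 0.32 in either direction and the star an adjusted p under 0.05. Vegfa in PB against VEH (0.15) carries the only star and stays inside the dotted lines.

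Among the Vegfa transcripts, none passed the adjusted p in the fit of 13062 transcripts, in which 0.605%, 0% and 0.582% of all transcripts were differentially expressed for PB against VEH, LEV against VEH and PB against LEV. Of the 21 member transcripts, 19 passed the filter on low counts, and 0 of these were differentially expressed in each comparison (edgeR; 4, 1 and 1 at an unadjusted p under 0.05). The 19 include groups with shared values and are not independent. The share of all transcripts at this unadjusted limit was not computed. At the gene level, 2575, 734 and 2504 of 12168 genes had such a p in the 3 comparisons. NM_001287113 and NM_001287114 were too sparse and are described separately.

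NM_001110336, one of the internal-start transcripts, held the largest share of Vegfa counts, 33.9% on average. Its lowest, median and highest values were 595, 757 and 864 normalized counts in VEH, 644, 813 and 1007 in PB and 679, 804 and 915 in LEV. PB exceeded VEH by 0.11 (SE 0.06, edgeR adjusted p = 0.303) and LEV exceeded VEH by 0.09 (SE 0.06, adjusted p = 0.914). The groups overlapped over most of their ranges. The block of NM_001110333, NM_001287108 and NM_001317043 held 11.9% of Vegfa counts per transcript, with 206, 264 and 359 normalized counts in VEH, 218, 287 and 417 in PB and 183, 263 and 366 in LEV. It differed by 0.12 between PB and VEH (SE 0.07, edgeR adjusted p = 0.357). NM_001110334 with its partner (7.28% each), NM_001110335 (4.90%) and NM_001287107 with its partner (3.85% each) differed by 0.17, 0.19 and 0.23 between PB and VEH, each with a p above 0.05.

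Larger fold changes were seen in rare Vegfa transcripts. NR_105011, a non-coding transcript, had a lowest value of 7.63, a median of 16.7 and a highest of 51.1 normalized counts in VEH. It had 14.4, 30.8 and 69.6 in PB, and 9.81, 36.9 and 104 in LEV. Values were spread widely in every group, and the highest animals belonged to the LEV group. The log2 fold change was 0.82 for PB (SE 0.30, edgeR p = 0.0087, adjusted p = 0.0962) and 0.97 for LEV (SE 0.29, p = 0.00201, adjusted p = 0.526), and neither passed the adjusted test. DESeq2, as an alternative, did call it for PB against VEH.

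The NM_001287111 and NM_001287112 pair had 2.25, 8.37 and 37.9 normalized counts in VEH and 4.05, 19.1 and 44.0 in PB. LEV animals had 2.20, 13.8 and 36.0. PB against VEH gave 0.93 (SE 0.37, edgeR p = 0.0167, adjusted p = 0.138) and LEV against VEH 0.54 (SE 0.38, adjusted p = 0.914). This call turned on 1 library: VEH animal 9 held the value of 37.9, with the next VEH animal at 16.7, and without it both transcripts were differentially expressed in PB.

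The sparse transcripts NM_001287113 and NM_001287114 had medians of 4.49 and 3.02 normalized counts in VEH, 9.54 and 4.65 in PB and 4.97 and 2.01 in LEV. Without the filter on low counts, NM_001287113 was higher in PB than in VEH by 0.92 (SE 0.25, edgeR adjusted p = 0.0243 over 15515 transcripts) and higher than in LEV by 0.99 (SE 0.25, adjusted p = 0.0178). NM_001287114 was higher in PB than in LEV by 1.04 (SE 0.27, adjusted p = 0.0244), while the difference from VEH of 0.82 (SE 0.27) had an adjusted p of 0.0696. They made up 0.325% and 0.175% of the Vegfa counts on average, and PB animals overlapped both other groups. Means of NM_001287113 in the first and second series were 3.79 and 7.32 normalized counts in VEH, 6.49 and 14.9 in PB, and 4.11 and 6.40 in LEV.

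**Figure D3:**
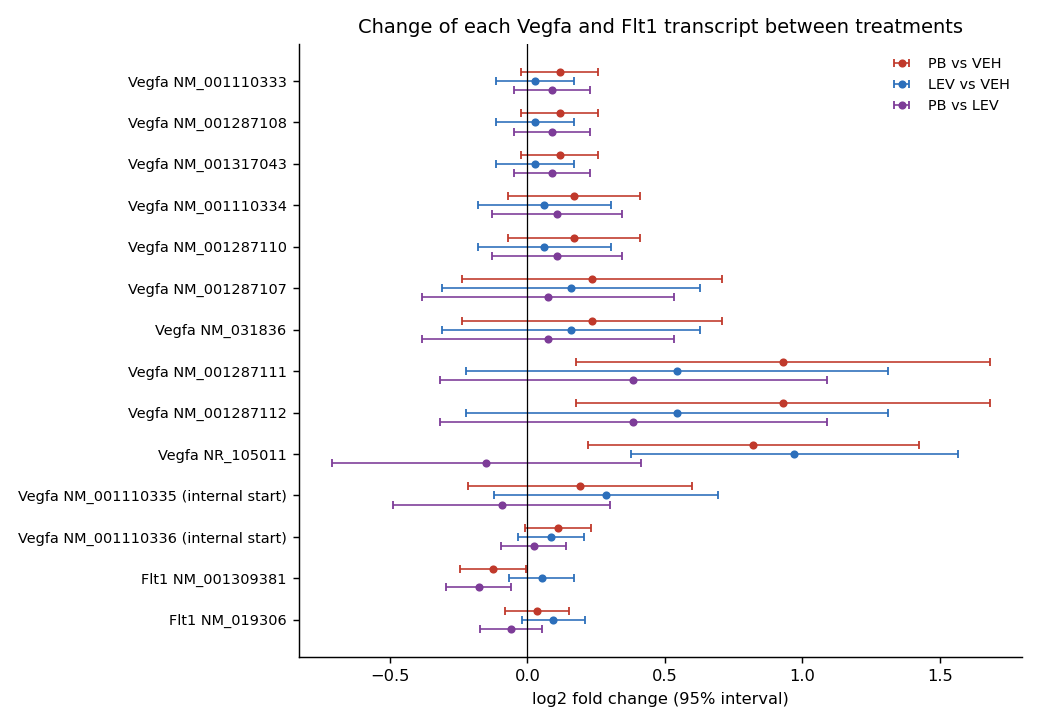
Log2 fold change with 95% interval (x axis) of the 12 Vegfa and 2 Flt1 transcripts that passed the filter, in the 3 comparisons. With both series in the fit, all 12 Vegfa transcripts lie above 0 in PB against VEH, from 0.11 to 0.93. The widest intervals belong to the rarest, and transcripts with identical values repeat each other.

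The share of a gene's counts held by each transcript was compared next, since it does not depend on the level of the gene. Of 36 share tests (transcripts with at least 1% of their gene, 3 comparisons), 0 passed an adjusted p of 0.05 and 4 had an unadjusted p under 0.05 by a permutation test of 100000 resamples within the series, two-sided. The share of NR_105011 was 1.03% ± 0.53 in VEH, 1.63% ± 0.85 in PB (permutation p = 0.0365) and 1.88% ± 1.18 in LEV (permutation p = 0.0142), each with an adjusted p of 0.427. The 2 internal-start transcripts together held 38.9% ± 4.2 (SD, n = 13) of Vegfa counts in VEH. The corresponding share was 38.1% ± 4.3 (n = 14) after PB and 39.6% ± 3.5 (n = 14) after LEV. No treatment difference in this share was found (permutation p = 0.519 for PB and 0.497 for LEV against VEH, 0.197 between the drugs). This grouping by start was chosen after the values were seen.

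Between the series, by contrast, the internal-start share differed. It was 35.8% ± 2.4 (n = 18) in animals 1 to 6 and 41.2% ± 3.3 (n = 23) in animals 7 to 14, a difference of 5.35 points (permutation p = 1e-05, the smallest that 100000 resamples can give, two-sided). Within treatments the means were 35.5% and 41.7% in VEH, 35.0% and 40.4% in PB, and 37.0% and 41.5% in LEV. The mean share was higher in the second series in each of the 3 groups.

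**Figure D4:**
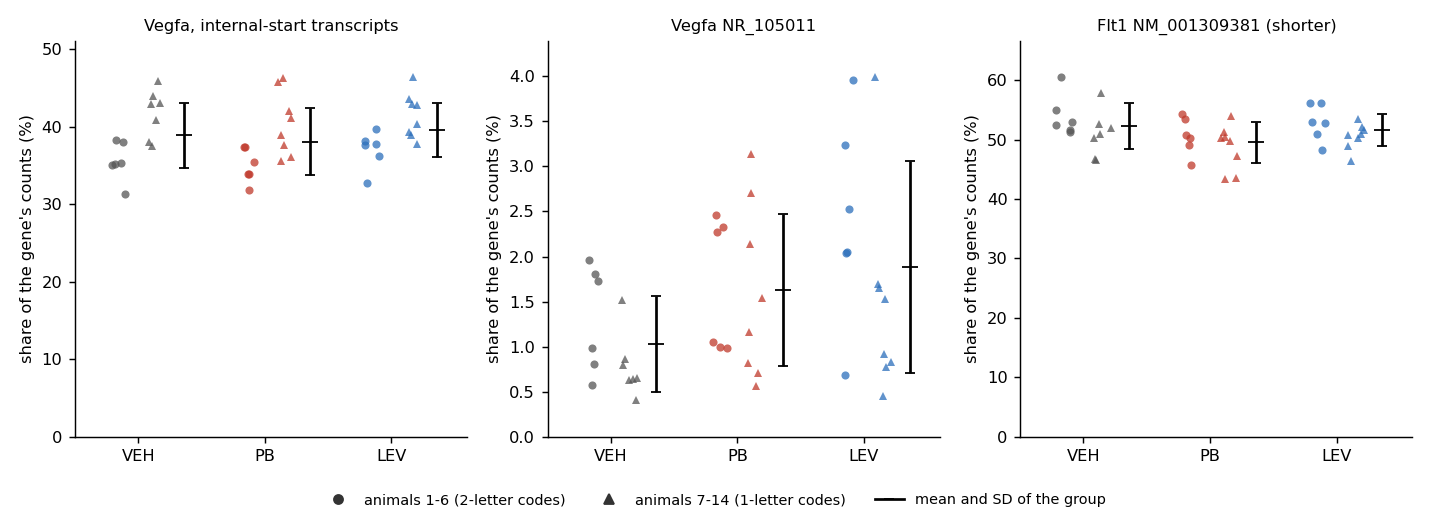
Share of the gene's estimated counts (y axes, %) held by the internal-start Vegfa transcripts, by Vegfa NR_105011 and by the shorter Flt1 transcript, per animal, with mean and SD of each group. The triangles (animals 7 to 14) lie higher than the circles (animals 1 to 6) in the first panel, at 41.2% against 35.8%, in all 3 treatments.

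Of the other ligands, Vegfb, which acts through Flt1 and is tied to the survival of vessels and neurons rather than to sprouting, had a lowest value of 262, a median of 314 and a highest of 368 normalized counts in VEH. The values were 265, 302 and 339 in PB and 258, 325 and 365 in LEV. Log2 fold changes were -0.05 (95% interval -0.14 to 0.05) for PB and 0.01 (-0.09 to 0.11) for LEV against VEH. Both intervals lie within the limit of 0.32.

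Vegfc, the main ligand of lymphatic growth and of Flt4, had 18.2, 22.5 and 41.3 normalized counts in VEH, 14.2, 23.9 and 35.8 in PB and 11.8, 23.8 and 33.0 in LEV. The fold changes were -0.04 (95% interval -0.34 to 0.26) and -0.10 (-0.40 to 0.20). Pgf, placental growth factor, which binds Flt1 but not Kdr, was the sparsest member, with 2.51, 7.44 and 11.1 normalized counts in VEH, 5.72, 9.55 and 13.6 in PB and 2.06, 8.88 and 19.2 in LEV. It had the largest fold changes of the gene sums, 0.39 (SE 0.23, 95% interval -0.07 to 0.85, edgeR adjusted p = 0.34) in PB and 0.41 (SE 0.23, -0.05 to 0.87, adjusted p = 0.84) in LEV. In each drug group, 11 of 14 animals exceeded the VEH mean of the same series. At this depth a change of Pgf could not be shown, and its interval reaches beyond the limit of 0.32.

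Flt1 (VEGF receptor 1), which binds Vegfa tightly and limits its supply to Kdr, was the receptor with the smallest p in any comparison. Flt1 sums had a lowest value of 529, a median of 650 and a highest of 751 normalized counts in VEH, 528, 606 and 709 in PB and 607, 655 and 769 in LEV. All 3 groups overlapped, and PB animals lay below the LEV mean of their series in 11 of 14 cases. PB differed from LEV by -0.12 (SE 0.05, 95% interval -0.21 to -0.03, edgeR p = 0.0118, adjusted p = 0.115). Against VEH, the difference was -0.05 (SE 0.05, adjusted p = 0.615) for PB and 0.07 (SE 0.05, adjusted p = 0.879) for LEV.

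The 2 Flt1 transcripts share 1 end at chr12:9034409 (rn6) and differ in the other, with NM_001309381 reaching 9129029 and NM_019306 reaching 9205887. NM_001309381 had 280, 335 and 435 normalized counts in VEH, 256, 306 and 386 in PB and 304, 331 and 404 in LEV. The log2 difference of PB was -0.13 from VEH (SE 0.06, edgeR p = 0.0395, adjusted p = 0.219) and -0.18 from LEV (SE 0.06, p = 0.00402, adjusted p = 0.0702), so that neither difference passed. In 13 of 14 PB animals it lay below the VEH mean of the series. NM_019306 had medians of 315, 304 and 327 in VEH, PB and LEV, with fold changes of 0.03 (SE 0.06) and 0.09 (SE 0.06) against VEH. The shorter transcript held 52.3% ± 3.8 of Flt1 counts in VEH, 49.5% ± 3.5 in PB and 51.6% ± 2.7 in LEV (permutation p = 0.0474 for PB against VEH, adjusted p = 0.427).

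Kdr (VEGF receptor 2), the main signalling receptor of endothelium, had 546, 620 and 667 normalized counts in VEH, 422, 600 and 782 in PB and 516, 613 and 720 in LEV. Its means were nearly equal, with -0.01 (95% interval -0.14 to 0.12) for PB and 0.04 (-0.09 to 0.17) for LEV against VEH. The PB animals were the most spread, with an SD of 102 against 42.2 in VEH and 62.4 in LEV, a difference in spread that was not tested. Flt4 (VEGF receptor 3), the receptor of Vegfc, had 28.7, 40.1 and 64.2 normalized counts in VEH, 29.5, 37.5 and 52.0 in PB and 26.4, 40.3 and 60.8 in LEV. The differences were -0.07 (95% interval -0.30 to 0.17) and -0.09 (-0.32 to 0.15).

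The series of animals separated 2 members at the gene level. Vegfa was lower in animals 7 to 14 than in animals 1 to 6 by a log2 difference of -0.21 (SE 0.03, edgeR adjusted p = 2.06e-08). Flt4 was lower by -0.32 (SE 0.10, adjusted p = 0.00813). The other 5 genes did not pass, in a comparison in which 30.9% of all genes did. The Vegfa transcripts that passed all had the upstream start: NM_001110333 and its 2 partners differed by -0.35 (adjusted p = 5.36e-06), NM_001287107 and NM_031836 by -0.66 (adjusted p = 0.00659) and NR_105011 by -0.69 (adjusted p = 0.0216). NM_001110336 and NM_001110335, with the internal start, differed by -0.04 (SE 0.05, adjusted p = 0.599) and 0.20 (SE 0.16, adjusted p = 0.384). Of those with the upstream start, NM_001110334 with its partner (-0.13, adjusted p = 0.333) and NM_001287111 with its partner (-0.33, adjusted p = 0.442) did not pass. The sparse NM_001287113 and NM_001287114, also with the upstream start, missed the filter and were not in this test. Their shares of Vegfa counts went the other way. They were 0.432% and 0.245% in animals 7 to 14, against 0.187% and 0.0869% in animals 1 to 6 (permutation p = 2e-05 and 1e-05). Of the Flt1 transcripts, NM_019306 was higher in the second series by 0.13 (SE 0.05, adjusted p = 0.0269) and NM_001309381 did not differ detectably (0.00, SE 0.05).

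No drug effect on a member gene was shown to differ between the series. The smallest of the 14 interaction tests was Flt1 after LEV, with -0.19 (SE 0.09, edgeR p = 0.0409, adjusted p = 0.345). Over all genes, 0.0822% differed between the series in their PB effect and 0.855% in their LEV effect.

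The rest of the pathway was described with lists of genes. Among 23 genes of VEGF receptor signalling, 1 was higher and 2 lower in PB than in VEH. Plcg1, the phospholipase C that Kdr activates, rose by 0.19 (SE 0.03, edgeR adjusted p = 0.000855), while Map2k1, a kinase that activates ERK, fell by 0.18 (adjusted p = 0.0094). Against LEV, PB animals had more Plcg1 (0.13) and Ptk2 (0.09), which encodes focal adhesion kinase, and less Map2k1 (-0.20). The median of the list was 0.00 for PB against VEH, and for all genes 0.01, with 11 positive and 12 negative values in the list. In LEV against VEH, 0 of 23 passed (edgeR, 3 at an unadjusted p under 0.05). Of all 12168 genes, 734 had such an unadjusted p. Of the VEGF co-receptors, Nrp1 and Nrp2 were tested and neither passed. The Nrp1 difference of PB was 0.14 from LEV (SE 0.05, edgeR adjusted p = 0.0909) and 0.08 from VEH (SE 0.05, adjusted p = 0.391), and that of Nrp2 was 0.12 from LEV (SE 0.06, adjusted p = 0.279).

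Vegfa is a classical target of the hypoxia-inducible factors, so the other hypoxia targets were set beside it. Of 13 tested, 0 were higher and 2 lower in PB than in VEH, with a median of -0.06. The 2 that fell were the glycolytic genes Pgk1 (-0.13, edgeR adjusted p = 0.0119) and Aldoa (-0.14, adjusted p = 0.0347). At an unadjusted edgeR p under 0.05 there were 7 of the 13, with both directions among them: Pdk1 (-0.13) and Ddit4 (-0.16) had negative values, and Adm (0.41), P4ha1 (0.15) and Ndrg1 (0.14) positive ones. Such a p was found for 2575 of all 12168 genes in PB against VEH. Against LEV, Pgk1 (-0.12), Aldoa (-0.20) and Ddit4 (-0.17), an inhibitor of mTORC1 signalling, were lower and P4ha1, a collagen prolyl hydroxylase, was higher (0.20). None of the 8 hypoxia sensing genes passed in any comparison, and Arnt, the partner of Hif1a, had the smallest p (PB against VEH, 0.17, SE 0.06, edgeR adjusted p = 0.0678; LEV against VEH, 0.15, SE 0.06, adjusted p = 0.774), followed by Hif1an, the asparagine hydroxylase that restrains it (LEV against VEH, -0.16, SE 0.08, adjusted p = 0.827). Of 14 angiopoietin, Notch and tip cell genes, 0 passed in PB against VEH (edgeR, 4 at an unadjusted p under 0.05), and 1 passed in PB against LEV, Hey2, a Notch target, at 0.24 (SE 0.07, edgeR adjusted p = 0.0331).

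Endothelial genes describe the cells that carry Flt1, Kdr and Flt4. Among 16 tested, Itm2a alone was lower in PB than in VEH (-0.25, SE 0.06, edgeR adjusted p = 0.00738), and none was higher. Against LEV, Itm2a (-0.22) and Cldn5 (-0.22, SE 0.06, adjusted p = 0.0209) were lower, and all 16 fold changes were negative, with a median of -0.12 against 0.00 for all genes. For all genes, 1.83% were higher and 2.96% lower in PB than in LEV, and 5909 of 12168 fold changes were negative. Against VEH, 14 of the 16 endothelial fold changes were negative in PB (median -0.04) and 14 were positive in LEV (median 0.06). Summed endothelial counts ranged from 5175 to 6637 in VEH, 4717 to 6608 in PB and 5410 to 6847 in LEV, with none of the list at 0 in all animals. In animals 1 to 6 the sums were 5612 to 6195 in VEH and 6278 to 6847 in LEV, without overlap. Their medians were 5892 in VEH, 5706 in PB and 6560 in LEV. In animals 7 to 14 the medians were 5773, 5299 and 5716, so the LEV median lay above that of VEH in the first series only. Flt1 differed by -0.12 in PB against LEV. With the level of the endothelium list in the model, its difference between PB and LEV was -0.09 (edgeR adjusted p = 0.551).

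Of the pericyte and smooth muscle (12 tested), fibroblast and meninges (9), microglia (9) and red blood cell (7) lists, 0 genes passed in any comparison. In PB against VEH their medians were -0.07, 0.09, -0.04 and -0.43, and 4, 0, 1 and 0 genes had an unadjusted edgeR p under 0.05. Of all 12168 genes, 2575 had such a p in this comparison. The pair with the smallest p over the 3 comparisons was Notch3 and Myh11 for pericytes and smooth muscle, Dcn and Igf2 for fibroblasts, Aif1 and Itgam for microglia and Hba-a2 and Slc4a1 for red blood cells. Among 8 astrocyte genes, Slc1a3, a glutamate transporter, and Fgfr3 were lower in PB than in VEH (-0.15 and -0.17, edgeR adjusted p = 0.00611 and 0.0353). Of 8 hippocampal neuron genes, Snap25, a protein of synaptic vesicle fusion, was lower in PB than in LEV (-0.19, adjusted p = 0.0105).

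The choroid plexus secretes cerebrospinal fluid and expresses Vegfa itself. All 11 genes of its list had positive fold changes in PB (median 0.62) and in LEV (median 0.67) against VEH, and none passed the test (edgeR, 0 at an unadjusted p under 0.05). Kcne2 and Otx2 had the smallest p, with 0.66 (SE 0.45) and 1.01 (SE 0.71) in LEV against VEH. Their summed counts ranged from 143 to 54278 in VEH, 175 to 85576 in PB and 123 to 62336 in LEV. Of 8 skeletal muscle genes 5 were tested, and 4 (Tnnt3, Atp2a1, Myh4 and Acta1) were lower in PB than in VEH and than in LEV, with Tnnt3 at -2.07 and -1.88. In animals 1 to 6, summed muscle counts were 363 to 514 in VEH, 315 to 638 in LEV and 157 to 202 in PB. The ranges of PB and VEH did not overlap there, which limits what the fit with the muscle list can separate. In animals 7 to 14 the sums were 138 to 200 in VEH, 128 to 199 in LEV and 120 to 187 in PB. The part of either tissue in the member values was not tested beyond the fits with the list level given above.

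**Figure D5:**
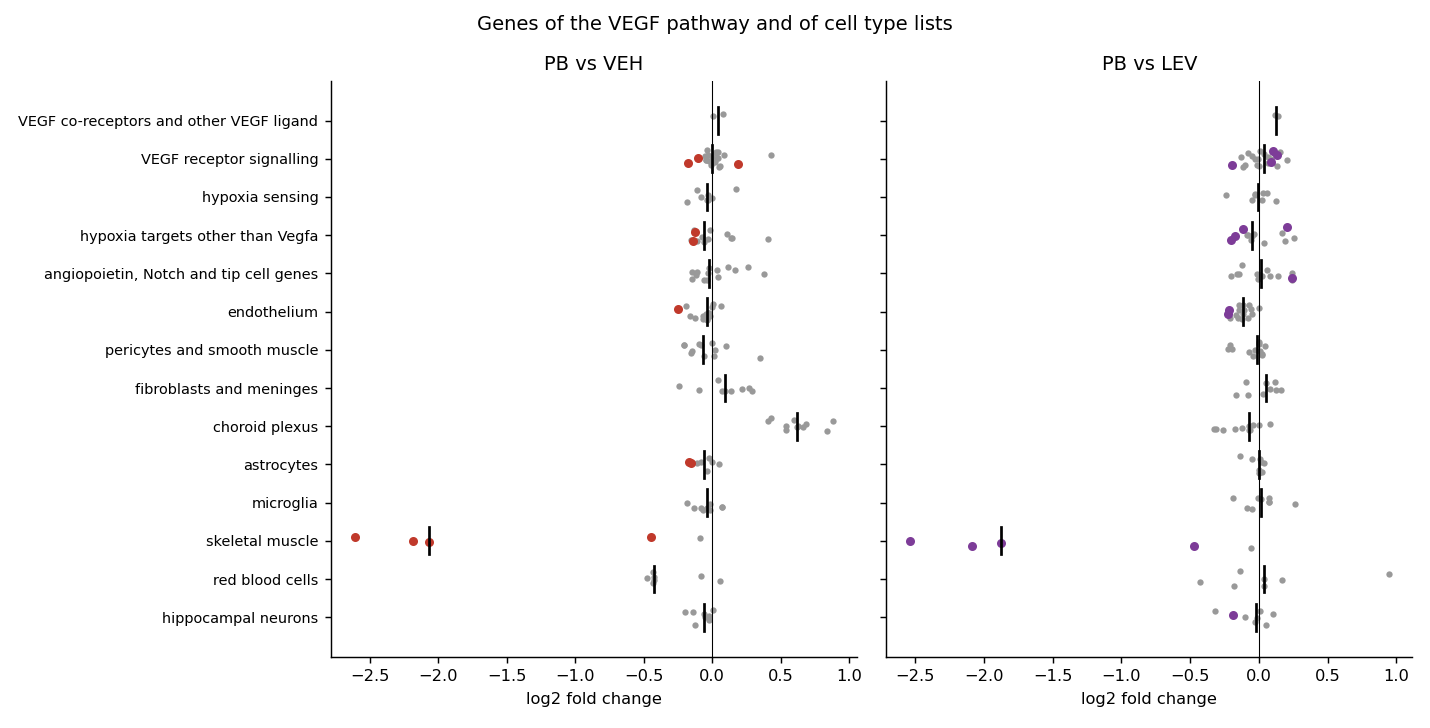
Log2 fold change (x axes) of every tested gene of each list in PB against VEH and PB against LEV; coloured points have an adjusted p under 0.05, grey points do not, and black bars are list medians. VEGF receptor signalling is centred near 0, all endothelial points lie below 0 in PB against LEV, and the skeletal muscle list lies far to the left.

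The genes most alike to 3 members were sought over the 41 animals after removal of the means of treatment and series. For Vegfa, the highest of 12167 Spearman correlations were with Rnf215 (0.64), Tymp (0.56) and Mrps12 (0.54). For Flt1 they were with Rbm6 (0.54), Gmeb2 (0.52) and Prss12 (0.51). For Kdr they were higher, with Dag1 (0.78), which encodes dystroglycan, and with Lama4 (0.73) and Col4a1 (0.72), which encode chains of the vascular basement membrane. These values describe animals that share normalization and dissection, and carry no test.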

How the data were processed

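Hippocampal RNA of each pup was sequenced as a library of its own. Reads were aligned by the authors with STAR 2.7.3a to rn6. They then estimated counts per RefSeq transcript in Partek and deposited these estimated counts without normalization; 13.7% are not whole numbers. Their table of DESeq2 comparisons (p values, fold changes and group means) was not used. Counts were rounded, summed per symbol, and filtered with filterByExpr by treatment, which kept 12168 genes and 13062 transcripts. In R 4.3.3, edgeR 4.0.16 (TMM, glmQLFit, glmQLFTest) was fitted to all 41 animals with the series as an additive term, and p values were adjusted by Benjamini-Hochberg over all tested. An adjusted p under 0.05 with a fold of at least 1.25 was called; SE is the fold change over the root of F. Transcript shares were tested by permutation (100000 resamples), and the steps were tested on simulated data. Promoter windows came from RefSeq (GRCr8); all 7 members matched. Fold changes are on the log2 scale.

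Where the study subtracted batch and batch-by-treatment effects before DESeq2, an additive term was used here, and the subtraction was kept as an alternative, run here with DESeq2 1.42.0. Further alternatives were other size factors, filters, batch terms, groups, list covariates and each animal left out. The members and lists were chosen with earlier results of these data known. All members and each of their transcripts were reported; transcripts with at least 10% of their gene or an unadjusted p under 0.05 were given in full, and list genes were named where their adjusted p was under 0.05, or otherwise as the 2 with the smallest p. Some list genes that passed are not reported here by name. The labels do not say which animals shared a litter, so litter was not a term in the main fit.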

Additional observations from a re-analysis of the deposited data

How the results depend on the processing

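Vegfa kept a positive difference between PB and VEH under all 15 alternatives that gave a fold change, from 0.12 to 0.22, and passed the adjusted p in 13 of them. It did not pass without the series term (0.14, edgeR adjusted p = 0.0946) or in the first series alone (0.12, adjusted p = 0.246). With the animal number as a replicate block it was 0.16 (adjusted p = 0.00829), and no other call changed. Of 40 same-numbered pairs, 14 correlated above 0.1 (median -0.02), and 4 of 41 animals correlated best with their own number. Pairs of unlike number were not set beside these, so whether the numbers pair the animals could not be told. Leaving out any 1 of the 41 animals gave 0.13 to 0.16, with adjusted p from 0.00101 to 0.00555. With no fold limit, 1 member gene was called between PB and VEH. The number of member transcripts called between PB and VEH rose from 0 to 1 without the low count filter (NM_001287113), to 1 with DESeq2 (NR_105011) and to 2 with batch effects subtracted before DESeq2 (both of these), and the number between PB and LEV rose to 2 without the filter. Leaving out 1 animal gave 0 to 2 called transcripts between PB and VEH, 2 only without VEH animal 9 (NM_001287111 and NM_001287112, which share their values). The causes were not tested. Among differences that did not pass the test, the direction turned in the first series alone for Flt1 (0.00477), Kdr (0.070) and Vegfc (0.076) in PB against VEH and for Flt4 (-0.024), Pgf (0.018) and Vegfa (-0.00093) in PB against LEV. In the second series alone it turned for Flt4 in PB against VEH (0.044) and for Flt1 (-0.010), Kdr (-0.030) and Vegfb (-0.027) in LEV against VEH. The replicate block turned Vegfc in PB against VEH (0.0041) and Pgf in PB against LEV (0.0086). All 14 VEH animals turned Kdr (-0.030) and Vegfb (-0.083) in LEV against VEH. The choroid plexus covariate turned Kdr in LEV against VEH (-0.00115), the skeletal muscle covariate Flt1 in PB against VEH (0.0086) and Vegfc in PB against LEV (-0.033), and the endothelium covariate Kdr (0.047) and Vegfc (0.041) in PB against VEH and Kdr in LEV against VEH (-0.055) and PB against LEV (0.10). With 1 animal left out, the direction turned in some fits for Kdr (-0.043 to 0.025) and Vegfc (-0.091 to 0.027) in PB against VEH, Vegfb (-0.013 to 0.032) in LEV against VEH, and Flt4 (-0.023 to 0.072), Pgf (-0.11 to 0.10) and Vegfc (-0.0021 to 0.11) in PB against LEV. The interaction and share tests gave 0 under their alternatives too. Depth limits Pgf and Vegfc, whose intervals exceed the log2 limit of 0.32. The interval of Flt4 in LEV against VEH also reaches just past it, to -0.325 with the limit at 0.322.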

Other observations

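VEH animal 7, which its label marks as excluded, was not part of the comparisons. Its Vegfa level was 93.3 CPM (counts scaled to the library total), while the 41 analysed animals lay between 157 and 239 CPM. Only 18.9% of its Vegfa counts were in the internal-start transcripts, against 31.2% to 46.4% in the others. Vegfb was at 52.4 CPM (22.5 to 32.1 in the others), Kdr at 87.9 (36.8 to 68.4), Flt1 at 72.0 (46.1 to 67.2), Flt4 at 6.75 (2.31 to 5.63) and Pgf at 2.37 (0.179 to 1.68), while Vegfc at 2.10 lay within the range of the others (1.03 to 3.62). Its total of 11928900 estimated counts lay within the range of the other animals.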
